A study of Mus musculus with 6 samples.

Results

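The genes described here are 8 CXC chemokine genes (Cxcl1, Cxcl2, Cxcl3, Cxcl9, Cxcl10, Cxcl11, Cxcl14 and Cxcl16), taken by gene symbol from a table of 55487 genes, and 4 of them passed a filter on low counts. RNA came from RAW264.7 cells, a mouse macrophage-like tumour line that can form osteoclasts. The labels give the 3 samples titled SMART-Cas9 the genotype RhoA knockout and the 3 control samples the genotype wild type, and all 6 were treated with RANKL and M-CSF, the cytokines of osteoclast formation. The study asked how loss of RhoA in macrophages bears on bone destruction in rheumatoid arthritis. The series' design text calls the control line untreated, which goes against that treatment label if it refers to the cytokines. No sample had Cas9 without targeting of RhoA, so effects of the procedure and of the edit cannot be told apart. The labels do not say whether the edited cells were a single clone or a pool, or whether replicates were grown separately, so each p-value covers the spread among these samples alone, which may be technical.

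Chemokines are small secreted proteins that steer leukocyte migration, and the CXC family is defined by a pair of conserved cysteines with a single residue between them. Members that carry a glutamate-leucine-arginine (ELR) motif before the cysteines, such as CXCL1, CXCL2 and CXCL3, attract neutrophils through CXCR2 and are classical NF-kB target genes of activated macrophages. CXCL9, CXCL10 and CXCL11 lack the motif, are induced by interferons and attract activated lymphocytes through CXCR3. CXCL16 is made as a transmembrane protein that binds CXCR6 and also acts as a scavenger receptor for oxidised lipoprotein, and CXCL14 is a divergent member best known from epithelia.

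Libraries held 60198645 to 81830819 counts. Rhoa itself held 2805, 2670 and 2395 counts in the RhoA knockout-labelled libraries, against 1655, 1510 and 1440 in the control libraries. Its transcript was therefore not lower in the libraries that carry the knockout label (log2 fold change 0.41 ± 0.12, SE; edgeR adjusted p = 0.0136). The adjusted p was 0.0741 without RhoA knockout replicate 1 and 0.0645 without control replicate 1. Over all 12930 genes tested, 22.3% were called lower and 21.0% higher, 43.2% in all. All 9 macrophage markers examined were tested, 5 were higher and 4 lower (2 lower with library totals alone or without RhoA knockout replicate 3), and their summed level was 84068 to 117668 CPM (counts brought to a common library size with TMM factors) in the RhoA knockout-labelled libraries and 20480 to 21996 CPM in the control libraries. The median log2 fold change of these markers was 0.56, and their sum is weighted towards the most abundant of them. The part of the difference in summed level in the chemokine results was not tested. The summed level of each list of markers for fibroblasts, endothelium, epithelium, neutrophils, dendritic cells, T cells and B cells reached at most 0.609 CPM in the libraries labelled RhoA knockout and at most 1.44 CPM in the control libraries, which came from epithelial markers in control replicate 1. Of 10 osteoclast markers 7 were tested, 2 were higher (1 without RhoA knockout replicate 2), 3 lower and 2 not called, and their summed level was 27.3 to 27.5 CPM in the libraries labelled RhoA knockout and 24.3 to 27.7 CPM in the control libraries. The median log2 fold change of the 7 tested osteoclast markers was -0.77, so near-equal sums do not mean that each marker was unchanged. Calcr and Oscar, named after their counts were seen, were the 2 markers at 0 in every library.

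Promoters of 5 members are shown because they set members with an NF-kB match beside Cxcl9, which had none. The stretches are RefSeq promoter sequence of build GRCm38.p6, read 5′ to 3′ on the strand of the gene and ending at the base before the RefSeq start site. Capitals mark matches to the NF-kB consensus on either strand, to the interferon-stimulated response element (ISRE, a pair of GAAA with any 2 bases between) and to TATAAA. Overlapping matches run together, and Cxcl9 had no match within its stretch.
Cxcl2: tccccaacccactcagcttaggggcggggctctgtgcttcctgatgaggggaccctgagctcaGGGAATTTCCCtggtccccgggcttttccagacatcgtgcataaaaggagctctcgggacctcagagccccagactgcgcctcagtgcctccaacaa
Cxcl1: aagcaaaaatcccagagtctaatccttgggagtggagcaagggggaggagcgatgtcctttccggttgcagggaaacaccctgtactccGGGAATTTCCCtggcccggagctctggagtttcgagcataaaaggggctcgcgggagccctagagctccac
Cxcl3: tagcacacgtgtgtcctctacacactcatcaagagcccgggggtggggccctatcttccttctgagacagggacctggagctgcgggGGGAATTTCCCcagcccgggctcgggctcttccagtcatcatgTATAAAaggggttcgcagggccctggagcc
Cxcl10: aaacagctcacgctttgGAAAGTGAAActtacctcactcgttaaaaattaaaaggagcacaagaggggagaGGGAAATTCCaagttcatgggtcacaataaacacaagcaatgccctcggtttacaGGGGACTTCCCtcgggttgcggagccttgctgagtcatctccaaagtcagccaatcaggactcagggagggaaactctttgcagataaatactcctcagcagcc
Cxcl9: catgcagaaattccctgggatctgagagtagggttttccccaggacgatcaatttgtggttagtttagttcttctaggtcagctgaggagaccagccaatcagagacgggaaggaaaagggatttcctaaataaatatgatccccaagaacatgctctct
These stretches lie at chr5:90903739-90903898 (Cxcl2, plus strand), chr5:90891085-90891244 (Cxcl1, plus), chr5:90785941-90786100 (Cxcl3, plus), chr5:92348890-92349119 (Cxcl10, minus) and chr5:92328080-92328239 (Cxcl9, minus). Promoters of Cxcl11 and Cxcl16 were not analysed here.

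The 3 ELR genes carried the same 10 bases, GGGAATTTCC, upstream of the start, at -97 to -88 in Cxcl2, -71 to -62 in Cxcl1 and -73 to -64 in Cxcl3. Cxcl10 held an NF-kB match at -159 to -150 and overlapping ones from -104 to -94, and an ISRE match at -213 to -204. In windows of 300 bases, from 250 before to 50 after the start, 4 of 6 members had an NF-kB match, against 8.46% of 32851 promoters in the table. Of these 4, 3 are the ELR genes of the same cluster with the same bases, so they do not count as independent promoters. An ISRE match stood in 2 of 6 members, Cxcl10 and Cxcl14, against 3.44% of all promoters. The match in Cxcl14, at -172 to -163, is not among the stretches shown. Among the other motifs searched on both strands, AP-1 (TGANTCA) matched in Cxcl10 and Cxcl9 (7.81% of all promoters), TATAAA in Cxcl3 and, at -195, in Cxcl9 (13.6%), the interferon-gamma activated site (TTCNNNGAA) in Cxcl14 (8.3%) and C/EBP (TTGCNNAA) in no member (10.8%). These are matches of letters and do not show that a factor was bound.

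The ELR transcripts also held AU-rich sequence in their 3′ ends, most of it in Cxcl2. ZFP36 and related proteins bind such sequence to hasten decay of cytokine transcripts. The 30 bases with the most ATTTA pentamers in the GENCODE M21 3′ untranslated region of 4 members are given next, with the pentamers in capitals.
Cxcl2: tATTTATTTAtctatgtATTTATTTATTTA
Cxcl1: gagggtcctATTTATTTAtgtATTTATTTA
Cxcl3: caagatggcatcttATTTAatgtttATTTA
Cxcl10: ttttatttcagatgtaagactacaaATTTA
The whole 3′ untranslated region held 11 pentamers in Cxcl2, 7 in Cxcl1 and 5 in Cxcl3, against 2 in Cxcl10, 1 in Cxcl11, 2 in Cxcl16, 3 in Cxcl9 and 0 in Cxcl14. The stricter nonamer TTATTTATT occurred 4 times in Cxcl2, 2 times in Cxcl1 and once in Cxcl3, and in none of the other members. Among 10271 tested genes with such a region, 0.195% had as many nonamers as Cxcl2 or more, and 7.19% had at least 1. At least as many pentamers stood in 4.32% of these genes for Cxcl2, 11.8% for Cxcl1 and 19.7% for Cxcl3. RNA stability was not measured.

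Of the 8 members, Cxcl2, Cxcl10, Cxcl11 and Cxcl16 passed the filter on low counts and were tested. The first 3 fell in the libraries labelled RhoA knockout and Cxcl16 rose, each past an edgeR adjusted p of 0.05. Among all tested genes, 22.3% were called lower and 21.0% higher. The median log2 fold change was -3.40 over the 4 tested members and -0.03 over all tested genes. The 4 members were tested because they were counted well in at least 1 group, so these counts say nothing of the other members. In bulk RNA, fewer cells that make a transcript and less transcript per cell cannot be told apart.

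Cxcl2 (ENSMUSG00000058427.10, chr5:90903871-90905938, plus strand of GRCm38), the neutrophil attractant also called MIP-2, held 456, 434 and 585 counts in the RhoA knockout-labelled libraries, against 28269, 20653 and 46355 in the control libraries. The groups lay far apart, and control replicate 3 stood above the other controls. In CPM the level was 6.03 ± 1.48 in the libraries labelled RhoA knockout and 501.9 ± 246.6 in the control libraries (SD, n = 3 each). The log2 fold change was -6.38 ± 0.45 (SE, edgeR adjusted p = 6.71e-05), a level 83.3-fold lower. Without control replicate 3 it was -5.90, an adjusted p of 2.47e-08 in edgeR. Ranked from the largest fall, Cxcl2 stood at place 76 of the tested genes.

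Cxcl1 (ENSMUSG00000029380.11, chr5:90891241-90893115), which lies between Cxcl3 and Cxcl2 and codes for a neutrophil attractant as well, had 0 counts in all 6 libraries. A count of 0 allows a level of up to 0.0367 to 0.0418 CPM in the libraries labelled RhoA knockout and 0.0375 to 0.0498 CPM in the control libraries. These limits cover counting error only and use library totals without the TMM factors. They would be higher if reads were counted more than once. Cxcl3 (ENSMUSG00000029379.10, chr5:90786103-90789600) held 0, 5 and 0 counts in the RhoA knockout-labelled libraries, against 8, 0 and 0 in the control libraries. Of the ELR genes with the shared upstream 10 bases, then, Cxcl2 was the one with an appreciable count in either group. Cxcl2 and Cxcl3 transcripts were 90.7% identical over 550 bp, and Cxcl3 never held more than 1.15% of the Cxcl2 count.

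Cxcl10 (ENSMUSG00000034855.13, chr5:92346638-92348889, minus strand), the interferon-inducible ligand of CXCR3 known as IP-10, held 71, 143 and 102 counts in the RhoA knockout-labelled libraries, against 2603, 2063 and 1356 in the control libraries. Every RhoA knockout-labelled library lay below every control library. Art3 on the other strand shares 133 bp of exon sequence with Cxcl10 and held 21 counts over all libraries together. The level was 1.27 ± 0.373 CPM in the libraries labelled RhoA knockout and 30.7 ± 6.67 CPM in the control libraries (SD, n = 3 each). The log2 fold change was -4.59 ± 0.25 (SE, edgeR adjusted p = 6.35e-08), a level 24.1-fold lower.

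Cxcl11 (ENSMUSG00000060183.6, chr5:92359544-92365485, minus strand), its neighbour and a ligand of the same receptor, is annotated as a polymorphic pseudogene in the reference. These counts report its transcript, and whether these cells make the protein was not tested. It held 46, 31 and 35 counts in the RhoA knockout-labelled libraries, against 168, 153 and 90 in the control libraries. The groups did not overlap, although both were low. The level was 0.456 ± 0.107 CPM in the libraries labelled RhoA knockout and 2.11 ± 0.547 CPM in the control libraries (SD, n = 3 each), with a log2 fold change of -2.21 ± 0.40 (SE, edgeR adjusted p = 0.00084). A processed pseudogene on the other strand, Gm2673, overlaps 1582 bp of its exons and held 0 counts.

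Cxcl9 (ENSMUSG00000029417.9, chr5:92321347-92328079, minus strand), the interferon-gamma-induced ligand MIG, had 0 counts in every library labelled RhoA knockout and 0, 0 and 18 counts in the controls. All its counts were therefore in control replicate 3. Cxcl14 (ENSMUSG00000021508.11, chr13:56288643-56296551, minus strand) held 0, 0 and 21 counts in the RhoA knockout-labelled libraries, against 0 in every control library. Neither gene was tested, and no fold is given for them.

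Cxcl16 (ENSMUSG00000018920.11, chr11:70453983-70459984, minus strand) was the member that rose. It held 3736, 4971 and 3939 counts in the RhoA knockout-labelled libraries, against 1623, 1090 and 1366 in the control libraries. The groups did not overlap, and the knockout-labelled values were the higher ones. The level was 51.0 ± 5.09 CPM in the libraries labelled RhoA knockout and 20.9 ± 2.28 CPM in the control libraries (SD, n = 3 each), with a log2 fold change of 1.28 ± 0.13 (SE, edgeR adjusted p = 6.54e-06), a level 2.43-fold higher. Zmynd15 on the other strand shares 552 bp of exon sequence with it and held 69 counts over all libraries together, against 16725 for Cxcl16. Counted over the tested members, 3 were lower and 1 higher with no overlap between groups, beside 28.3% lower, 27.5% higher and 55.8% either way among all tested genes.

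**Figure D1:**
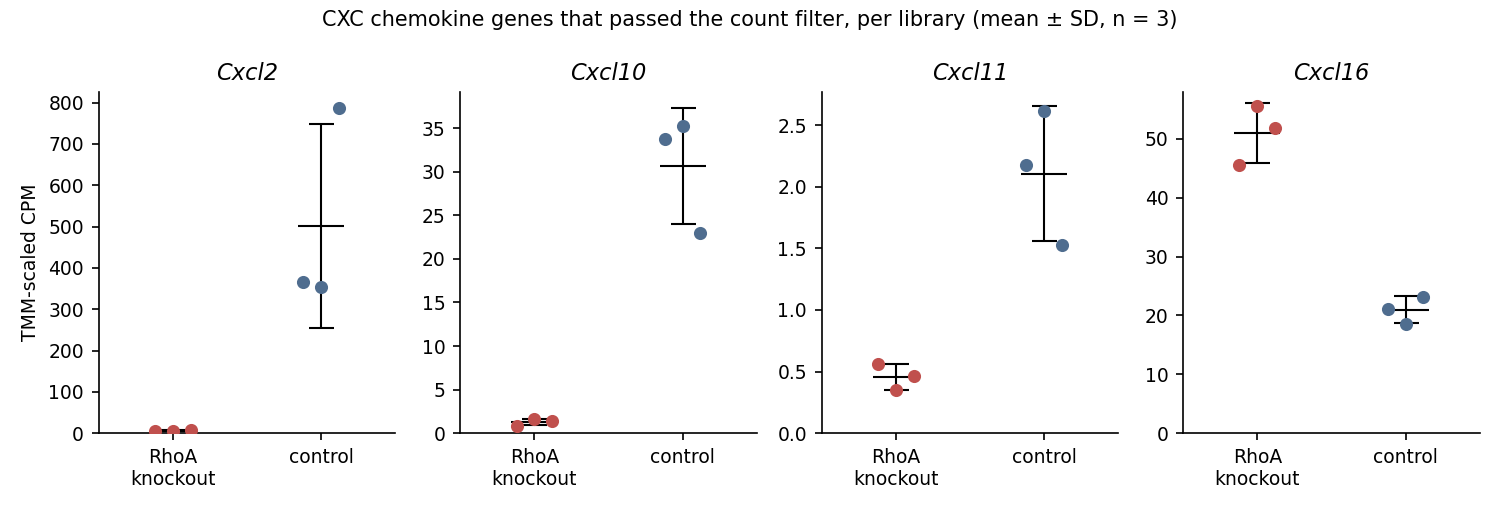
TMM-scaled CPM on the vertical axes, each starting at 0, for the 4 tested members in the libraries labelled RhoA knockout and the control libraries. Points are libraries, and bars show the mean and SD of 3. Cxcl2, Cxcl10 and Cxcl11 lie lower in the libraries labelled RhoA knockout, and Cxcl16 lies between 45.5 and 55.6 CPM there, against 18.6 to 23.2 CPM in the control libraries.

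Within the control group, though not in the libraries labelled RhoA knockout, the tested members fell into pairs with opposite orders. Control replicate 3 had the highest Cxcl2 level, 786.6 CPM against 366.4 and 352.8 CPM in control replicates 1 and 2. Cxcl16 had the same order, with 23.2 CPM in control replicate 3 and 21.0 and 18.6 CPM in control replicates 1 and 2. The same library had the lowest levels of Cxcl10 (23.0 CPM, against 33.7 and 35.2 CPM) and of Cxcl11 (1.53 CPM, against 2.18 and 2.61 CPM). Over all genes control replicate 3 also differed most from the others of its group by a chi-square on raw counts, which is weighted towards abundant genes. Its value per degree of freedom was at least 89.0, against 20.7 between control replicates 1 and 2. RhoA knockout replicate 3 likewise stood apart, at 80.8 or more against 26.3 between RhoA knockout replicates 1 and 2. It also had the highest Cxcl2 level of its group, 7.69 CPM against 5.56 and 4.85 CPM. The pairs seen in the controls did not recur in this group. In RhoA knockout replicates 1, 2 and 3, Cxcl10 had 0.865, 1.60 and 1.34 CPM and Cxcl11 had 0.561, 0.347 and 0.460 CPM. Cxcl16 had 45.5, 55.6 and 51.8 CPM, the order of Cxcl10 and not of Cxcl2. On principal component 2 of log2 CPM over the tested genes, control replicates 1, 2 and 3 lay at -7.72, -50.4 and 56.9. By that measure control replicate 2 stood apart as well. The part of control replicate 3 in the spread of Cxcl2 was not tested beyond the fit without it.

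The estimated falls of the 3 lower members differed in size. The log2 ratio of Cxcl2 to Cxcl10 counts was 2.27 ± 0.58 in the libraries labelled RhoA knockout and 3.95 ± 0.99 in the control libraries (SD, n = 3 each), a difference of -1.69. That of Cxcl10 to Cxcl11 was 1.46 ± 0.79 in the libraries labelled RhoA knockout and 3.87 ± 0.11 in the control libraries, a difference of -2.42. Between Cxcl2 and Cxcl16, which changed in opposite directions, the ratio differed by -7.58. All 6 pairs of tested members separated the groups without overlap, at a two-sided exact permutation p of 0.1, also after adjustment over the 6 pairs. This is the smallest p that 3 against 3 libraries allow, so no pair can pass 0.05.

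To compare levels between genes, CPM were divided by exon length in kilobases. The summed level of the 8 members was 18.3, 21.6 and 21.7 CPM per kb in the RhoA knockout-labelled libraries, against 199.7, 193.1 and 398.7 CPM per kb in the control libraries. Cxcl2 made up 14.2 ± 3.14% of this sum in the libraries labelled RhoA knockout and 90.8 ± 3.96% in the control libraries (SD, n = 3 each). Cxcl16 made up 82.2 ± 3.22% in the libraries labelled RhoA knockout and 2.87 ± 0.83% in the control libraries. The order of levels per length was Cxcl16, Cxcl2, Cxcl10 and Cxcl11 in the libraries labelled RhoA knockout, at 16.9, 2.92, 0.563 and 0.120 CPM per kb. In the control libraries it was Cxcl2, Cxcl10, Cxcl16 and Cxcl11, at 242.7, 13.6, 6.93 and 0.555 CPM per kb, and each neighbour in both orders was separated from the next in every library of the group. With the length of the transcript that has the longest coding sequence, chosen after the data were seen because the exon union holds retained introns, the share of Cxcl16 was 73.1% in the libraries labelled RhoA knockout and 1.73% in the control libraries. The summed level was then 23.0, 26.7 and 27.8 CPM per kb in the libraries labelled RhoA knockout and 370.5, 358.9 and 739.9 CPM per kb in the control libraries. No test is given for these shares.

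**Figure D2:**
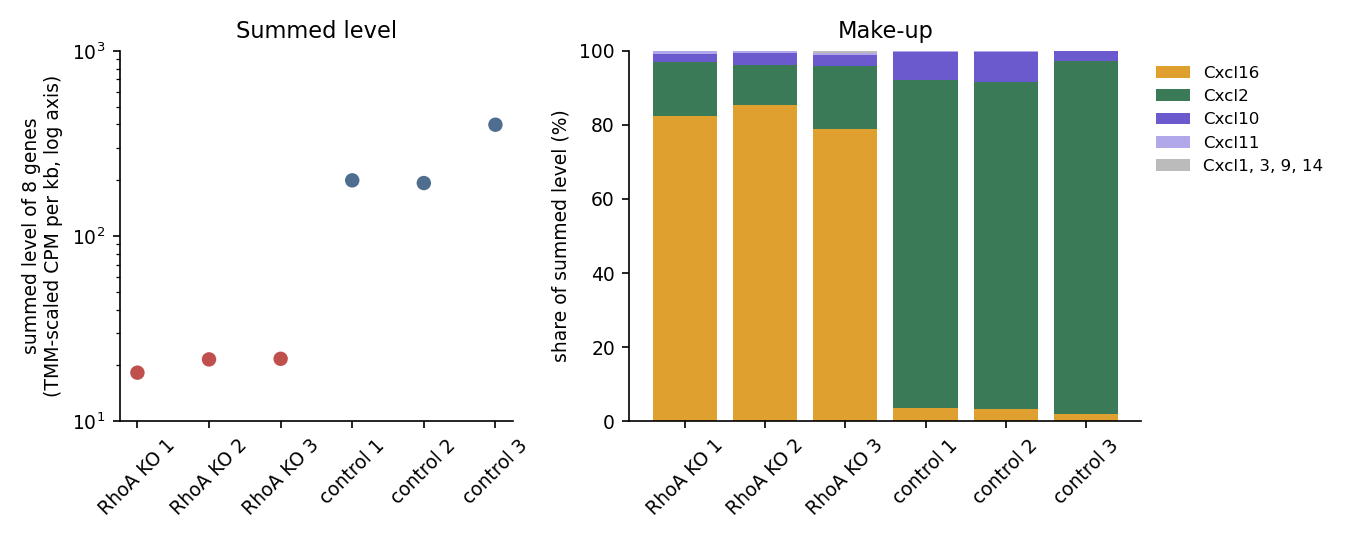
The left panel gives the summed level of the 8 members on a log axis (TMM-scaled CPM per kb of exon) and the right panel the share of each member in percent, for the 3 libraries labelled RhoA knockout (RhoA KO) and the 3 control libraries. Cxcl16 makes up most of the sum in the libraries labelled RhoA knockout and Cxcl2 in the control libraries.

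Among 7 further CXC ligand genes, Pf4 was the one tested. Pf4 encodes platelet factor 4, an angiostatic CXC chemokine without the ELR motif, and lies in the same cluster as Cxcl2. It held 700, 785 and 723 counts in the RhoA knockout-labelled libraries, against 101, 33 and 62 in the control libraries. It rose, with 8.94 ± 0.507 CPM in the libraries labelled RhoA knockout and 0.975 ± 0.379 CPM in the control libraries (SD, n = 3 each; log2 fold change 3.18 ± 0.29, SE; edgeR adjusted p = 3.60e-06). Cxcl5, Ppbp, Cxcl12, Cxcl13 and Cxcl15 were at 0 in every library, and Cxcl17 held 14 counts, all in RhoA knockout replicate 1.

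The CXC receptors were sparse. Cxcr1, Cxcr2, Ackr1 and Ackr3 were at 0 in every library, which covers the receptors of the ELR ligands, and Cxcr4, the receptor of CXCL12, held 8 counts in 1 library labelled RhoA knockout. Cxcr3, the receptor of CXCL9, CXCL10 and CXCL11, held 85, 119 and 35 counts in the RhoA knockout-labelled libraries, against 12, 5 and 0 in the control libraries. Its log2 fold change was 3.49 ± 0.95 (SE, edgeR adjusted p = 0.0105). The call was lost in limma-voom (adjusted p = 0.0525) and without RhoA knockout replicate 2 (edgeR adjusted p = 0.0688), and the gene was not tested with the stricter filter or with counts divided by 4. Cxcr6, the receptor of CXCL16, held 9, 8 and 8 counts in the RhoA knockout-labelled libraries, against 43, 12 and 10 in the control libraries (edgeR adjusted p = 0.232). Cxcr5 held 134, 132 and 44 counts in the RhoA knockout-labelled libraries, against 35, 28 and 76 in the control libraries (edgeR adjusted p = 0.317).

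**Figure D3:**
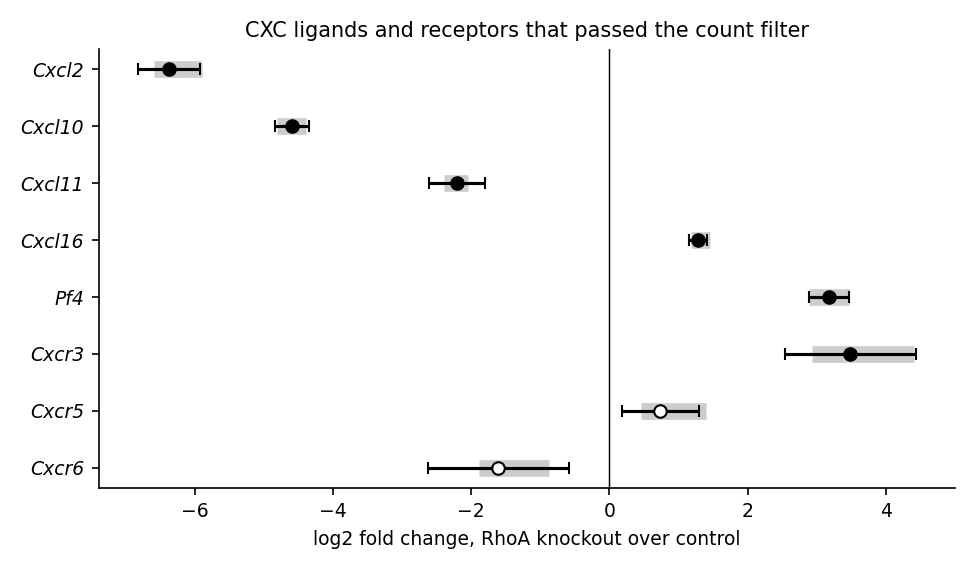
Log2 fold change of the libraries labelled RhoA knockout over the control libraries for the tested CXC ligands and receptors. Circles with bars are the edgeR estimate and its SE, filled where the adjusted p is under 0.05, and grey bands span the estimates over the alternative settings. The estimates run from -6.38 for Cxcl2 to 3.49 for Cxcr3.

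Of 93 other protein-coding genes within 500 kb of a member, 48 were tested, 10 were called higher and 12 lower, with a median log2 fold change of -0.06. The called share of these neighbours, 45.8%, was near the 43.2% of all tested genes. Next to the Cxcl9, Cxcl10 and Cxcl11 cluster, Sdad1 had a log2 fold change of -0.85, Naaa of 1.90 and Uso1, a vesicle tethering protein, of -1.73. Near Cxcl16, the glycolytic enzyme gene Eno3 rose by 2.00 and Scimp, an adaptor of Toll-like receptor signalling, had a log2 fold change of -2.76. Sdad1 and Naaa were chosen after their values were seen.

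**Figure D4:**
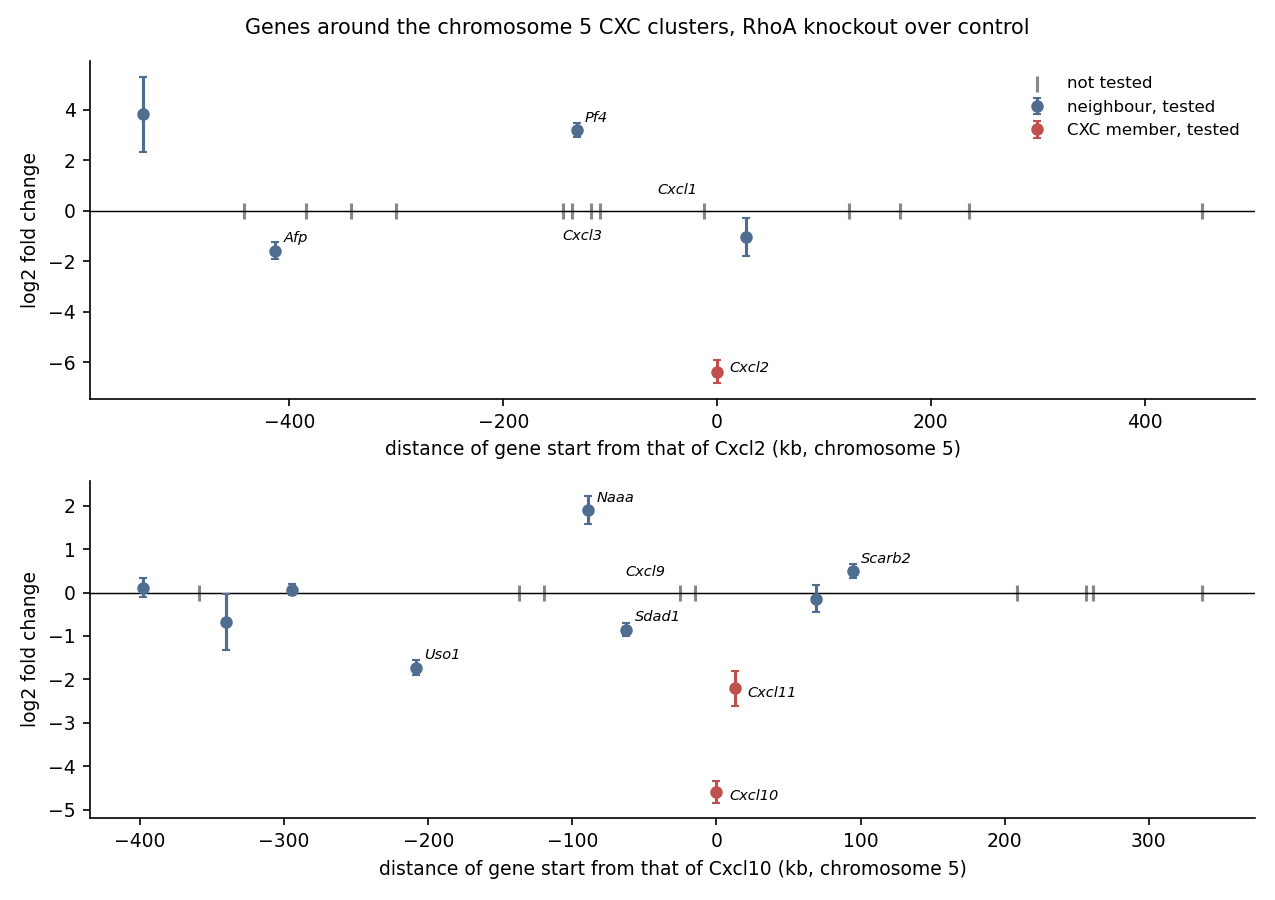
Log2 fold change (libraries labelled RhoA knockout over control libraries, error bars SE) against the distance in kb from the start of Cxcl2 (top) and of Cxcl10 (bottom) on chromosome 5. Grey ticks at 0 mark genes that were not tested, and named genes are members or genes with an adjusted p under 0.05. Cxcl2 lies at -6.38 while Pf4 in the same cluster lies at 3.18.

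Genes of the pathways that induce these chemokines were read from the same fit. The NF-kB and interferon lists were chosen with earlier results of these data known, so their called shares are described and not tested. NF-kB dimers drive the ELR genes and are restrained by the IkB proteins that they induce. Of 16 subunits, inhibitors and kinases of this pathway, all tested, 10 were lower and 1 higher, or 68.8% called beside 43.2% of all tested genes (22.3% lower, 21.0% higher). The median log2 fold change was -0.98, beside -0.03 over all tested genes. Nfkbiz, an atypical nuclear IkB that co-activates a subset of NF-kB targets, fell to 1.88 ± 0.201 CPM in the RhoA knockout-labelled libraries, against 33.5 ± 1.52 CPM in the control libraries (SD, n = 3 each), a log2 fold change of -4.16 ± 0.15. The subunit genes Rel and Nfkb1 had log2 fold changes of -2.30 and -1.85, and the inhibitor Nfkbia one of -1.24. Nfkbie, another IkB, was the one that rose, by 1.70, while Rela was at -0.15 ± 0.23 and not called (edgeR adjusted p = 0.639), with a positive sign under library totals alone or without control replicate 3. Rela and Nfkbie were chosen after their values were seen.

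Interferon receptors signal through JAK kinases, STAT proteins and interferon regulatory factors, which act at ISRE and related sites. Of 18 such genes 17 were tested, 10 were lower and 4 higher, or 82.4% called beside 43.2% of all tested genes (22.3% lower, 21.0% higher). The median log2 fold change was -0.58, beside -0.03 over all tested genes. Irf7 fell to 22.5 ± 1.63 CPM in the RhoA knockout-labelled libraries, against 155.0 ± 8.86 CPM in the control libraries (SD, n = 3 each; log2 fold change -2.78 ± 0.11, SE). Stat2 and Irf8 had log2 fold changes of -3.11 and -2.12. Ifngr1, the ligand-binding chain of the interferon-gamma receptor, rose by 1.90 ± 0.13. Ifnb1, the interferon-beta gene, was at 0 in every library labelled RhoA knockout and held 20, 18 and 0 counts in the control libraries. It was not tested, and it is named here after its counts were seen.

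Of 9 genes that act on mRNA decay, 4 were lower and 5 not called, and 2 were lower with the correction for exon length. Which of them act on the CXC transcripts was not tested. The called share of 44.4% was near the 43.2% of all tested genes. All 4 calls were lower, beside 22.3% lower and 21.0% higher among all tested genes. Zfp36, which encodes tristetraprolin, fell to 3.38 ± 0.965 CPM in the RhoA knockout-labelled libraries, against 20.4 ± 3.51 CPM in the control libraries (SD, n = 3 each; log2 fold change -2.59 ± 0.23, SE). Rc3h1, which encodes the decay factor Roquin-1, had a log2 fold change of -1.59. Rc3h2 (-1.20) and Hnrnpd (-0.65) were the calls lost with the length correction, at edgeR adjusted p-values of 0.107 and 0.173. The call of Hnrnpd was also lost with library totals alone (edgeR adjusted p = 0.155) and without RhoA knockout replicate 2 or 3 or control replicate 1 or 2 (0.0778, 0.0707, 0.0936 and 0.0558). Of 10 proteases that can shed or trim CXC chemokines, 7 were tested, 3 were higher and 4 lower, or 2 lower without control replicate 1 or 2, beside 21.0% higher and 22.3% lower among all tested genes. Adam10 and Adam17, sheddases of surface CXCL16, had log2 fold changes of -0.59 ± 0.20 and 0.47 ± 0.15 (edgeR adjusted p = 0.0327 and 0.0230), and were chosen after their values were seen. The Adam10 call was lost with library totals alone, with the length correction and without RhoA knockout replicate 2 or 3 or control replicate 1 or 2, at edgeR adjusted p-values of 0.0645 to 0.263. The Adam17 call was lost without RhoA knockout replicate 1 or 2 or control replicate 2 or 3, at 0.0562 to 0.117. Mmp9 and Ctsl had log2 fold changes of -2.06 and -2.05, Ctsk one of 1.10, and Mmp12 held 70, 29 and 72 counts in the RhoA knockout-labelled libraries and 0 in every control library. Dpp4, the peptidase that inactivates CXCR3 ligands, was at 0 in every library and is named after its counts were seen.

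**Figure D5:**
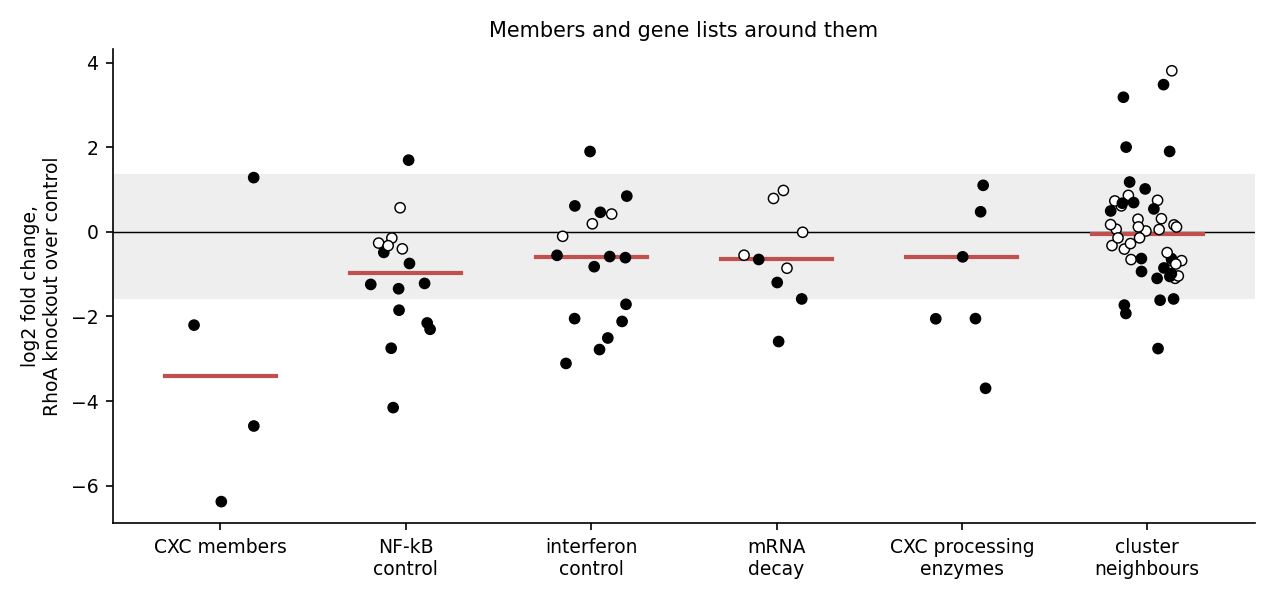
Log2 fold change (libraries labelled RhoA knockout over control libraries) of each tested gene in the CXC members and 5 lists around them. Filled circles have an edgeR adjusted p under 0.05, red lines are list medians, and the grey band spans the 10th to 90th percentile of all tested genes. Mmp12, at 0 in the control libraries, counts in its median and is not drawn. The medians of the NF-kB, interferon and decay lists are -0.98, -0.58 and -0.65, and that of the cluster neighbours is -0.06.

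The genes whose profile over the 6 libraries was most like that of the most abundant ELR member and of the most abundant cluster member without the motif were found by the root mean square difference of centred log2 CPM. For Cxcl2 these were Ccl4 (0.27), Il1rn (0.45), Ccl3 (0.46), Odc1 (0.46) and Rsad2 (0.46). Ccl4 and Ccl3 are CC chemokines, and Ccl4 had 47.0, 41.2 and 48.7 CPM in the RhoA knockout-labelled libraries, against 3829, 3799 and 6034 CPM in the control libraries. Control replicate 3 was the highest, as for Cxcl2. The genes were chosen by likeness over these same 6 libraries, so a shared order is favoured by the choice and is no separate result. Odc1 is uncertain, since its pseudogene copy Gm7993 is 95.7% identical and held up to 54.1% of its count. For Cxcl10 they were Ifit2 (0.22), Ccl12 (0.29), Cpd (0.37), Slfn4 (0.37) and Rgs16 (0.38). Ifit2, an interferon-induced antiviral gene, had 1.63, 2.10 and 1.60 CPM in the RhoA knockout-labelled libraries, against 38.8, 45.9 and 27.4 CPM in the control libraries. Its lowest control value was in replicate 3, as for Cxcl10, which the choice by likeness favours in the same way. Ccl12 and Rgs16 were at 0 in every library labelled RhoA knockout, so their likeness rests on the 0.1 CPM added before taking logs.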

How the data were processed

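RNA of 6 RAW264.7 samples was isolated with Trizol, and an Illumina TruSeq-type kit was used for sequencing libraries, per the labels' protocols. The authors deposited whole-number counts per gene for 55487 genes, without normalization. The genome build is GRCm38, per the submitters' processing notes, and the aligner, counter and strand setting were not stated in the sources used here. Symbols and coordinates come from GENCODE M21, in which 55227 IDs had a symbol. All 6 value columns were matched to samples by name.

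Counts were tested with edgeR 4.0.16 in R 4.3.3 (TMM, filterByExpr defaults, robust glmQLFit, glmQLFTest), and p-values were adjusted over 12930 genes by Benjamini-Hochberg, with calls at 0.05. The procedure was tested on simulated data. SE is the log2 fold change over the square root of F. CPM are TMM-scaled. Alternatives used DESeq2 1.42.0, limma-voom 3.58.1, other scalings and filters, a replicate block, a correction for exon length and fits without each library. No 2 libraries of a group agreed within sampling noise. Multiples of 4 occurred 1.32 to 1.45 times as often as adjacent counts, so reads may have been counted more than once, and counts divided by 4 were an alternative. Near-identical copies were sought by blastn 2.17.0 (95% identity over 200 bp, with 10% of the count). Promoters are from RefSeq. Limits for a count of 0 are 3 counts over the library total, without the TMM factors. The members, lists and tests were chosen with earlier results of these data known. Named genes were Rhoa, all members, tested CXC ligands and receptors, up to 4 called genes with the smallest p from each other list, and the 5 most similar profiles (on log2 of CPM plus 0.1, an offset set later), with others said to be chosen later. Protein features and the planned test of shares were left out.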

Additional observations from a re-analysis of the deposited data

How the results depend on the processing

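Cxcl2, Cxcl10, Cxcl11 and Cxcl16 kept their direction and stayed past an adjusted p of 0.05 in all 16 alternative fits. Over the fits that left out no library, the log2 fold change lay between -6.54 and -6.20 for Cxcl2, -4.74 and -4.43 for Cxcl10, -2.21 and -2.04 for Cxcl11, and 1.22 and 1.46 for Cxcl16. Leaving out each library in turn gave -6.60 to -5.90, -4.82 to -4.40, -2.40 to -2.04 and 1.18 to 1.36 for the same genes. Rhoa ranged from 0.34 to 0.45 when libraries were left out and from 0.41 to 0.72 in the other fits, with 0.59 for library totals alone and 0.72 for the length correction. Same-numbered libraries did not deviate together (correlations of -0.006, 0.028 and 0.014 over 12930 genes), so the numbers were not taken as pairs. With the replicate block 5372 genes were called against 5592, and the members stood at -6.30, -4.60, -2.19 and 1.28. For Cxcl2, highest in replicate 3 of both groups, the SE was 0.16 with the block (edgeR adjusted p = 4.44e-08) and 0.45 without it. Scaling by library totals alone put 59.8% of calls on the higher side, compared with 48.5% under TMM, and moved the median of all genes to 0.15 from -0.03. The share of Cxcl2 in the summed level was 21.0% in the libraries labelled RhoA knockout with the coding transcript length, which was chosen after the data were seen, and that of Cxcl16 was 73.1%, against 1.73% in the control libraries. Rela, not called in any fit, was 0.047 with library totals alone and ranged from -0.38 to 0.15 when libraries were left out. Counting only bases before the start, 1 member had an AP-1 match. Cxcl1, Cxcl3, Cxcl9 and Cxcl14 had too few counts to be tested.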
